A study of Zea mays with 24 samples.

Results

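Iron withdrawal in shoots that already lacked zinc was followed on 6 of the 24 GeneChip Maize Genome Arrays of the series. The shoots came from hydroponic seedlings of SKV-616, a quality protein maize inbred line, kept for 12 days in the treatment solution. By the labels and methods, the –Fe–Zn group (3 arrays) had neither Fe EDTA nor ZnSO4 in the solution. The –Zn group (3 arrays) had Fe EDTA but no ZnSO4. Both groups were thus labelled as zinc-deficient and differing only in iron supply. The study's table, however, gives –Zn against control shoots nearly the folds found here for –Zn against –Fe–Zn shoots. Examples are ZRT-IRT-like protein 5 (8.73-fold here) and Zinc transporter 4 (3.61-fold here). The table's folds for –Fe against control shoots likewise follow –Fe against deposited –Fe–Zn shoots. The ferredoxin FDX6 averaged 6.45 in –Fe and 7.04 in –Fe–Zn shoots, and Zinc transporter 4 averaged 4.62 and 4.38. In these genes the table's shoot control thus matches the arrays deposited as –Fe–Zn, not those deposited as +Fe+Zn (9.68 and 9.47). The labels as deposited are followed, and whether the table or the deposit names these arrays wrongly is not settled. The –Fe shoots (3 arrays, zinc supplied) and the +Fe+Zn shoots (3 arrays, both supplied) served to set the iron effect without zinc beside the iron effect with zinc, and these 2 effects share no array. All 17621 probe sets other than the manufacturer's controls were tested, of 17734 on the array. A probe set gathers the oligonucleotides that report on 1 transcript, and its level is given on the log2 scale, where a difference of 1 is a doubling. The labels number the replications of each group, all from 1 inbred line, without saying whether they are separate plants, so the p-values measure the spread between these RNA samples, which may be technical.

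Grasses take up iron by releasing mugineic acids, which are built from nicotianamine and bind ferric iron. The complex enters cells through transporters of the yellow stripe family, nicotianamine itself carries iron and zinc inside the plant, and ferritin stores surplus iron in plastids. Within the leaf most iron sits in the photosystems, ferredoxin and other iron-sulphur and heme proteins, whereas zinc serves many enzymes and transcription factors.

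The labelled tissue was borne out on all 6 arrays. The 100 probe sets most above root in the +Fe+Zn plants had medians of 8.98 to 9.94 on the –Fe–Zn arrays and 10.7 to 11.09 on the –Zn arrays. The 100 probe sets most above shoot had medians of 3.15 to 3.82 on these arrays, compared with 8.45 to 10.08 in roots. Seed and endosperm markers had a median of 2.24, the lowest value deposited. Arrays of 1 group correlated across probe sets at 0.973 to 0.987 in –Fe–Zn and at 0.989 to 0.994 in –Zn, and arrays of the different groups at 0.954 to 0.968. Between 20.1% and 21.1% of the probe sets lay at the lowest value on each of the 6 arrays, so a fold change from there is understated. The bacterial hybridisation spikes bioB, bioC and bioD, added in fixed amounts to each hybridisation (21 probe sets), were all higher on the –Fe–Zn arrays, by 0.75 to 1.07. The median difference of all probe sets was 0 as deposited and -0.88 when arrays were scaled to these spikes, a scaling chosen after seeing the data. The cre spikes, left out of that scaling, were higher too, but by 0.42 to 0.62. The size of the shift thus depends on the spikes chosen. All differences below are therefore relative to the median probe set, and smaller rises turn negative on the scale of bioB, bioC and bioD, the spike scale.

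With the 2-fold threshold that the study's methods set beside a p under 0.05 before adjustment, 696 probe sets were higher in –Fe–Zn than in –Zn shoots (3.95% of those tested) and 773 were lower (4.39%). Of these 1469 probe sets, 1276 carry no gene name in the annotation used here. After Benjamini-Hochberg adjustment in limma over all tested probe sets, 1849 were higher (10.5%) and 2137 lower (12.1%) at an adjusted p under 0.05, and this is the rule by which genes are said to rise or fall below. Among the 1452 probe sets with a gene name, 147 rose (10.1%) and 204 fell (14%). Every list count below stands against the shares over all probe sets tested, 10.5% higher and 12.1% lower. The 3 arrays of each group did not overlap for 2307 probe sets that were higher (13.1%) and 2428 that were lower (13.8%). Differences of at least 4 on the log2 scale were found for 26 probe sets that rose and 10 that fell. An exact permutation test of 3 arrays against 3 reaches no p below 0.1, so the tests rest on the spread shared over all arrays.

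Iron uptake and iron storage are described first. Yellow stripe 1 (ys1), the transporter of ferric mugineic acid complexes, stood at 11.09, 9.47 and 9.62 in –Fe–Zn shoots, against 6.55, 6.64 and 6.67 in –Zn shoots. All 3 –Fe–Zn arrays lay far above every –Zn array, and replicate 1 of –Fe–Zn was above the other two. The rise was 3.44 (standard error 0.33, adjusted p = 4e-07), or 10.9-fold. A transcript that the study calls an oligopeptide transmembrane transporter rose further, with levels of 10.17, 10.60 and 10.20 in –Fe–Zn shoots and 4.74, 4.59 and 4.81 in –Zn shoots. Its arrays agreed closely within each group, and the difference of 5.61 (standard error 0.23, adjusted p = 9.27e-12) is a 48.8-fold rise. Both genes belong to a list that the study chose on these samples, so their change is not independent evidence. The study's table gives both as lower in –Zn than in control shoots, by nearly the folds above. It gives them as lower still in –Fe–Zn shoots, but that column is not matched by the deposited shoot arrays. There Nicotianamine synthase 3 is given as strongly lower in –Fe–Zn shoots. In the deposited values it averaged 12.95 in –Fe–Zn, 13.38 in –Zn, 12.71 in –Fe and 13.34 in +Fe+Zn shoots, so no pair of shoot groups holds such a fall. The source of that column is not settled, and it cannot be set against the order found here.

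Ferritins moved the other way. The level of fer1 was 7.13, 6.91 and 7.02 in –Fe–Zn shoots, against 9.61, 9.67 and 9.68 in –Zn shoots. The groups were far apart and tight, and fer1 fell by 2.63 (standard error 0.25, adjusted p = 4.04e-07). For fer2 the arrays read 5.56, 5.74 and 5.60 in –Fe–Zn shoots and 7.43, 7.43 and 7.32 in –Zn shoots, a fall of the same kind, and it fell by 1.76 (adjusted p = 3.1e-06). With zinc supplied the ferritins fell as well (-2.61 for fer1 and -2.68 for fer2, –Fe minus +Fe+Zn shoots). The iron effect on fer1 did not differ detectably between the zinc levels (interaction -0.02, standard error 0.35), while that on fer2 was smaller without zinc (interaction 0.91, adjusted p = 0.0229).

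The enzymes that make nicotianamine changed little. Nicotianamine synthase 3, among the most abundant transcripts described here, was at 12.95, 12.95 and 12.94 in –Fe–Zn shoots, against 13.45, 13.31 and 13.38 in –Zn shoots, and it fell by 0.43 (adjusted p = 0.0362). Leaving out any single array of Nicotianamine synthase 3 ended this call, with adjusted p between 0.0552 and 0.0985. Nicotianamine synthase nas1 was near the lowest value at the probe set the study lists, with levels of 2.45, 2.54 and 2.27 in –Fe–Zn and 2.54, 2.54 and 2.45 in –Zn shoots. Its brightest probe set in these shoots averaged 3.32 in –Fe–Zn and 3.43 in –Zn, and none of its 4 probe sets passed the test. Ferric-chelate reductase, which reduces ferric iron before uptake in plants other than grasses, overlapped between the groups (difference -0.52, adjusted p = 0.139). Ferrochelatase, the last enzyme of heme synthesis, overlapped too (difference -0.17, adjusted p = 0.359), although without replicate 2 of –Fe–Zn Ferrochelatase was at -0.34 (adjusted p = 0.0136). Of the 11 probe sets of iron uptake and storage, 1 rose (9.09%) and 2 fell (18.2%), and the 8 others did not pass the test.

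**Figure D1:**
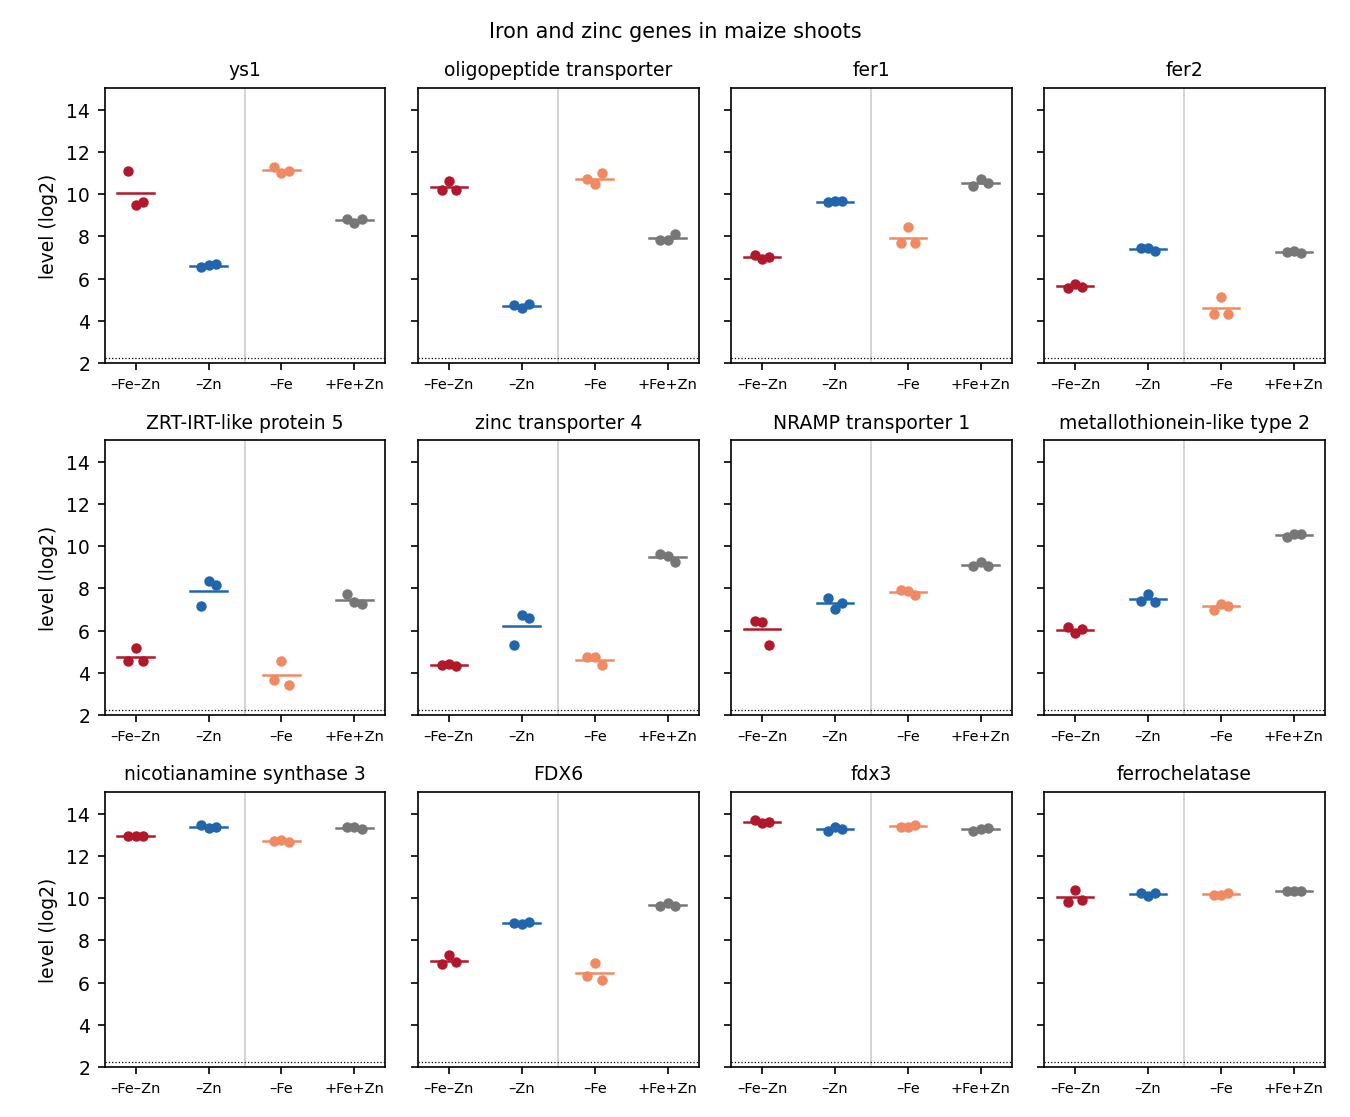
Levels (log2) of 12 iron and zinc genes on each shoot array; points are arrays, bars are means of 3, the dotted line is the lowest value deposited, and the vertical line parts the zinc-free pair from the zinc-supplied pair. The yellow stripe and oligopeptide transporters sit higher without iron at both zinc levels, and the ferritins lower.

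Several metal transporters fell when iron was withdrawn from zinc-deficient shoots. ZRT-IRT-like protein 5, of the family that imports zinc and iron, was at 4.59, 5.18 and 4.54 in –Fe–Zn shoots, against 7.15, 8.37 and 8.17 in –Zn shoots. The groups did not overlap, replicate 1 of –Zn being the lowest of its group, and ZRT-IRT-like protein 5 fell by 3.13 (standard error 0.44, adjusted p = 4.11e-05). Zinc transporter 4 was at 4.38, 4.43 and 4.32 in –Fe–Zn shoots and at 5.34, 6.75 and 6.60 in –Zn shoots. Again replicate 1 of –Zn lay nearest to –Fe–Zn, and Zinc transporter 4 fell by 1.85 (adjusted p = 4.82e-05). NRAMP transporter1, a divalent metal carrier, fell by 1.23 (adjusted p = 0.00029). A metallothionein-like protein of type 2, a cysteine-rich metal binder, fell by 1.45 (adjusted p = 2.88e-06). With zinc supplied, the falls of Zinc transporter 4 (-4.85) and of the metallothionein (-3.39) were larger, and both interactions passed the test (2.99, adjusted p = 1.07e-05, and 1.93, adjusted p = 5.74e-06). Those of ZRT-IRT-like protein 5 (-3.55) and NRAMP transporter1 (-1.30) were not shown to differ between zinc levels (adjusted p = 0.756 and 1). When only the 6 arrays were fitted, Zinc transporter 4 (adjusted p = 0.0667) and NRAMP transporter1 (adjusted p = 0.141) no longer passed. Of the 37 probe sets in the study's transport and mugineic acid list, 4 rose (10.8%) and 11 fell (29.7%), with a median of -0.26 against 0 for all probe sets. The study chose that list on these samples. Its table gives ZRT-IRT-like protein 5 and Zinc transporter 4 as higher in –Zn than in control shoots. Those folds are nearly the ones found here for –Zn against –Fe–Zn shoots, so their reference is not the +Fe+Zn group that follows. In the deposited values ZRT-IRT-like protein 5 averaged 7.90 in –Zn and 7.45 in +Fe+Zn shoots. Zinc transporter 4 averaged 6.23 in –Zn and 9.47 in +Fe+Zn shoots, so it was lower there.

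Among iron-containing enzymes the mitochondrial alternative oxidases stood out. These di-iron proteins pass electrons from ubiquinol straight to oxygen. The level of aox2 was 12.45, 12.70 and 12.54 in –Fe–Zn shoots, against 8.18, 8.15 and 8.28 in –Zn shoots. The 2 groups were each tight and wide apart, and aox2 rose by 4.36 (standard error 0.12, adjusted p = 7.1e-14), or 20.5-fold. The level of aox3 was 7.75, 7.17 and 8.02 in –Fe–Zn shoots and 3.85, 3.36 and 3.12 in –Zn shoots, a rise of 4.20 (adjusted p = 2.53e-10). With zinc supplied aox2 rose by 3.98, and its interaction of 0.38 (standard error 0.17, adjusted p = 0.132) did not pass the test. For aox3 the difference with zinc was -0.01 (adjusted p = 1), and its interaction was 4.22 (adjusted p = 1.88e-08).

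Plant hemoglobin Hb, a heme protein that scavenges nitric oxide, was at 7.67, 6.62 and 7.20 in –Fe–Zn shoots, against 3.08, 3.5 and 3.85 in –Zn shoots. Every –Fe–Zn array was well above every –Zn array, a rise of 3.69 (standard error 0.28, adjusted p = 3.01e-08). The lipoxygenase lox3, whose iron atom oxidises fatty acids, rose by 2.14 (adjusted p = 3.46e-07). The catalase CAT3, a heme enzyme that splits hydrogen peroxide, fell by 1.74 (CAT3 was named after its value was seen). In all, 10 of the 37 probe sets of iron-containing enzymes rose (27%) and 5 fell (13.5%), with a median of 0.07, and on the spike scale 3 rose and 5 fell. Of 15 probe sets of antioxidant enzymes without iron, 1 rose (6.67%) and none fell. That one was Sod4A, by its synonyms a superoxide dismutase of the copper and zinc type, at 11.25, 10.98 and 11.26 in –Fe–Zn shoots against 9.15, 9.39 and 9.17 in –Zn shoots, a rise of 1.93 (adjusted p = 0.0003).

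**Figure D2:**
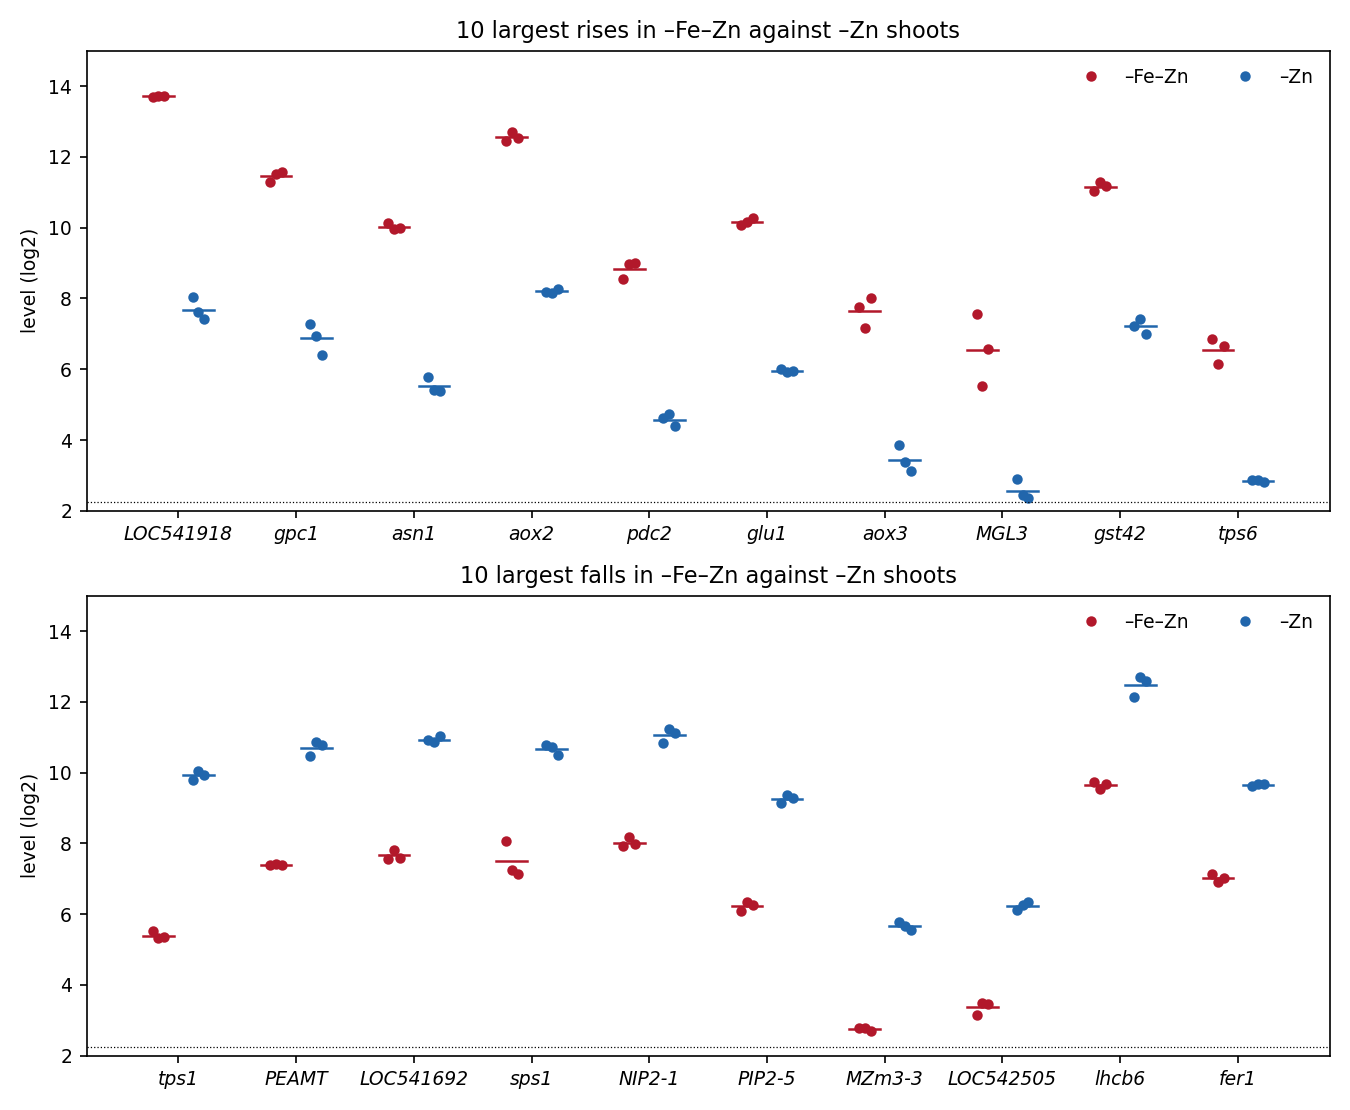
Levels (log2) of the 10 annotated genes that rose most (top) and fell most (bottom) in –Fe–Zn against –Zn shoots; points are arrays, bars are means of 3, and the dotted line is the lowest value deposited. For every gene shown the 3 –Fe–Zn arrays lie on 1 side of the 3 –Zn arrays.

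Ferredoxins, the iron-sulphur electron carriers of plastids, fell in part. The level of fdx2 was 9.55, 9.79 and 9.99 in –Fe–Zn shoots, against 11.67, 11.51 and 11.55 in –Zn shoots, and fdx2 fell by 1.80 (standard error 0.10, adjusted p = 3.22e-10). FDX6 fell by 1.79 (adjusted p = 4.28e-06). For fdx3 the brighter probe set rose slightly, with levels of 13.68, 13.54 and 13.60 in –Fe–Zn and 13.19, 13.35 and 13.26 in –Zn shoots (difference 0.34, adjusted p = 0.0155), and the dimmer one, which the study lists, did not pass (0.28, adjusted p = 0.718). The rise of fdx3 was lost without replicate 1 of –Zn (adjusted p = 0.06) and turned to -0.54 on the spike scale. Of 12 probe sets of ferredoxins and their reductases, 1 rose (8.33%) and 2 fell (16.7%).

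Some transcripts of the photosynthetic apparatus were lower in –Fe–Zn shoots. The minor antenna protein gene lhcb6 was at 9.73, 9.53 and 9.66 in –Fe–Zn shoots, against 12.13, 12.69 and 12.58 in –Zn shoots. It fell by 2.82 (standard error 0.39, adjusted p = 3.56e-05), its second probe set fell by 2.36, and 2 further ones lay at 0.00 and 0.04. The photosystem I subunits psan1 and psad1 fell (-1.80 and -1.13). Of 14 probe sets of photosystems and antennae none rose and 6 fell (42.9%), with a median of -0.74. Without replicate 2 of –Fe–Zn or of –Zn 4 fell.

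Rubisco activase rca1, which frees Rubisco of inhibitory sugar phosphates, was at 8.25, 6.0 and 7.07 in –Fe–Zn shoots, against 8.86, 9.23 and 9.39 in –Zn shoots. The –Fe–Zn arrays were widely spread, with replicate 2 lowest, and rca1 fell by 2.05 (standard error 0.34, adjusted p = 0.000206, and 0.138 when only the 6 arrays were fitted). The same array was lowest for PSBQ1, a subunit of the oxygen-evolving complex, for the malate dehydrogenase mdh6 and for CCD1, a carotenoid-cleaving dioxygenase. Each of these 3 overlapped between the groups. Without replicate 2 of –Fe–Zn the difference of CCD1 was -0.74 (adjusted p = 0.0824) and that of PSBQ1 -0.90 (adjusted p = 0.0837), so neither call stood. The C4 enzyme gene Ppdk1, pyruvate phosphate dikinase, fell by 0.80 at its brightest probe set (adjusted p = 7.19e-05). The glyceraldehyde phosphate dehydrogenase gpa1 of the plastid rose by 0.84, a call that ended without replicate 1 of –Fe–Zn (gpa1 0.55, adjusted p = 0.085) or replicate 1 of –Zn (0.54, adjusted p = 0.0961), and gpa1 was at -0.04 on the spike scale. Among 15 probe sets of the Calvin cycle and C4 pathway 1 rose (6.67%) and 5 fell (33.3%). Without replicate 1 of –Fe–Zn none rose and 9 fell.

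Leaf markers fell in part along with these groups, although their array medians overlapped. Of 23 leaf marker probe sets, many of them in the photosynthesis lists, 1 rose and 10 fell (43.5%), and their median per array was 10.29, 8.14 and 8.98 in –Fe–Zn shoots, against 9.91, 10.8 and 10.72 in –Zn shoots. Root markers stayed low, at 2.86 to 2.98 in –Fe–Zn and 2.89 to 3.54 in –Zn shoots. In whole shoots, fewer cells of a type and less RNA per cell cannot be told apart, and the part of leaf tissue in the lower photosynthesis transcripts was not tested. In the photosynthesis and carbohydrate list that the study chose on these samples, 4 of 37 probe sets rose (10.8%) and 12 fell (32.4%).

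Regulators of the plastid split both ways. The transcription factor glk1, which drives chloroplast development, fell by 1.11 (adjusted p = 0.000151), as did the sigma factor gene sig1, which fell by 1.35 (adjusted p = 9.57e-05). The phage-type RNA polymerase gene rpoT2 rose by 1.23 (adjusted p = 8.73e-05), and tha9, a part of the thylakoid import route, rose by 1.08 (adjusted p = 0.002). Of 25 probe sets for plastid gene expression and import, 5 rose (20%) and 5 fell (20%). In pigment synthesis the beta-carotene hydroxylase gene crtRB1 stood at 11.05, 10.89 and 10.57 in –Fe–Zn shoots, against 8.75, 9.0 and 9.16 in –Zn shoots. The groups lay apart and crtRB1 rose by 1.87 (adjusted p = 8.22e-07), while the phytoene synthase psy2, the entry enzyme of carotenoid synthesis, fell by 0.97 to near background.

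Glycolysis and fermentation rose more often than they fell. The cytosolic glyceraldehyde phosphate dehydrogenase gpc1 was at 11.29, 11.51 and 11.56 in –Fe–Zn shoots, against 7.28, 6.93 and 6.41 in –Zn shoots. Its arrays were far apart, and gpc1 rose by 4.58 (standard error 0.20, adjusted p = 2.79e-11), although a second probe set of the gene was at 0.02 (adjusted p = 1). Pyruvate decarboxylase pdc2, the first step from pyruvate to ethanol, was at 8.54, 8.98 and 9.0 in –Fe–Zn shoots, against 4.62, 4.72 and 4.39 in –Zn shoots. It rose by 4.26 (standard error 0.23, adjusted p = 3.91e-10), or 19.2-fold. The other probe sets of pdc2 were at 2.06 (adjusted p = 7.47e-07), 0.58 (adjusted p = 0.176) and 0.07 (adjusted p = 0.729). A further cytosolic dehydrogenase, gpc4, rose by 2.39, and gpn1, which by its synonym GAPN is the non-phosphorylating form, fell by 1.56. In all 10 of 29 probe sets rose (34.5%) and 2 fell (6.9%), with a median of 0.23, and on the spike scale 5 rose and 5 fell.

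Sugar and starch synthesis fell in part. Sucrose phosphate synthase sps1, which commits carbon to sucrose, was at 8.08, 7.26 and 7.13 in –Fe–Zn shoots, against 10.77, 10.72 and 10.49 in –Zn shoots. All –Fe–Zn arrays were far below every –Zn array, and sps1 fell by 3.17 (standard error 0.25, adjusted p = 5.81e-08). The starch genes Agp2, a subunit of ADP-glucose pyrophosphorylase, ae1, a branching enzyme, and iso2, an isoamylase, fell, with differences of -2.08, -1.62 and -1.54. Of 36 sucrose and starch probe sets 1 rose and 8 fell (22.2%), and the median difference was 0.

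Asparagine synthetase asn1, which stores nitrogen on a carbon-poor amide, was among the transcripts that rose most. Its levels were 10.14, 9.96 and 9.99 in –Fe–Zn shoots and 5.77, 5.43 and 5.39 in –Zn shoots. The rise of asn1 was 4.50 (standard error 0.39, adjusted p = 1.42e-07), and the second probe set rose by 6.48, the largest rise of all probe sets tested. The glutamine synthetase gln2 rose by 1.1 (adjusted p = 0.000734), and nar fell by 1.26 (adjusted p = 3.76e-09). Of 24 probe sets of nitrogen assimilation and amino acids 3 rose (12.5%) and 2 fell (8.33%), near the shares over all probe sets.

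Detoxification and defence transcripts rose without falls among the called members. The glutathione S-transferase gst42, of the enzymes that attach glutathione to reactive compounds, was at 11.02, 11.28 and 11.17 in –Fe–Zn shoots, against 7.21, 7.43 and 7.0 in –Zn shoots. Both groups were tight, and gst42 rose by 3.94 (standard error 0.24, adjusted p = 2.12e-09), or 15.4-fold. The abundant gst4 rose by 2.45, to 13.83, 13.75 and 13.85 in –Fe–Zn shoots, against 11.34, 11.41 and 11.31 in –Zn shoots. The members gst7 and gst24 rose by 2.22 and 2.20 from lower levels. Of 35 glutathione S-transferase probe sets 8 rose (22.9%) and none fell. On the spike scale 4 rose and 1 fell.

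Among defence proteins, the chitinase chn1, which degrades fungal walls, was at 9.42, 8.71 and 8.79 in –Fe–Zn shoots, against 6.34, 6.45 and 6.38 in –Zn shoots. Every –Fe–Zn array was above every –Zn array, and chn1 rose by 2.58 (adjusted p = 3.48e-09). A cyclotide gene, for a small circular defence peptide, rose by 2.59, the thaumatin-like PR-5 by 1.46 and the wound-induced protease inhibitor wip1 by 1.16. Of 20 probe sets 8 rose (40%) and none fell. Without replicate 3 of –Fe–Zn 5 rose, and on the spike scale 3 rose. The beta-glucosidase glu1, which releases defence compounds and cytokinins from their glucosides, rose by 4.21 (adjusted p = 9.33e-10), with levels of 10.08, 10.15 and 10.28 in –Fe–Zn and 6.01, 5.93 and 5.95 in –Zn shoots. The benzoxazinoid gene bx6 fell by 2.53 (adjusted p = 1.59e-05).

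**Figure D3:**
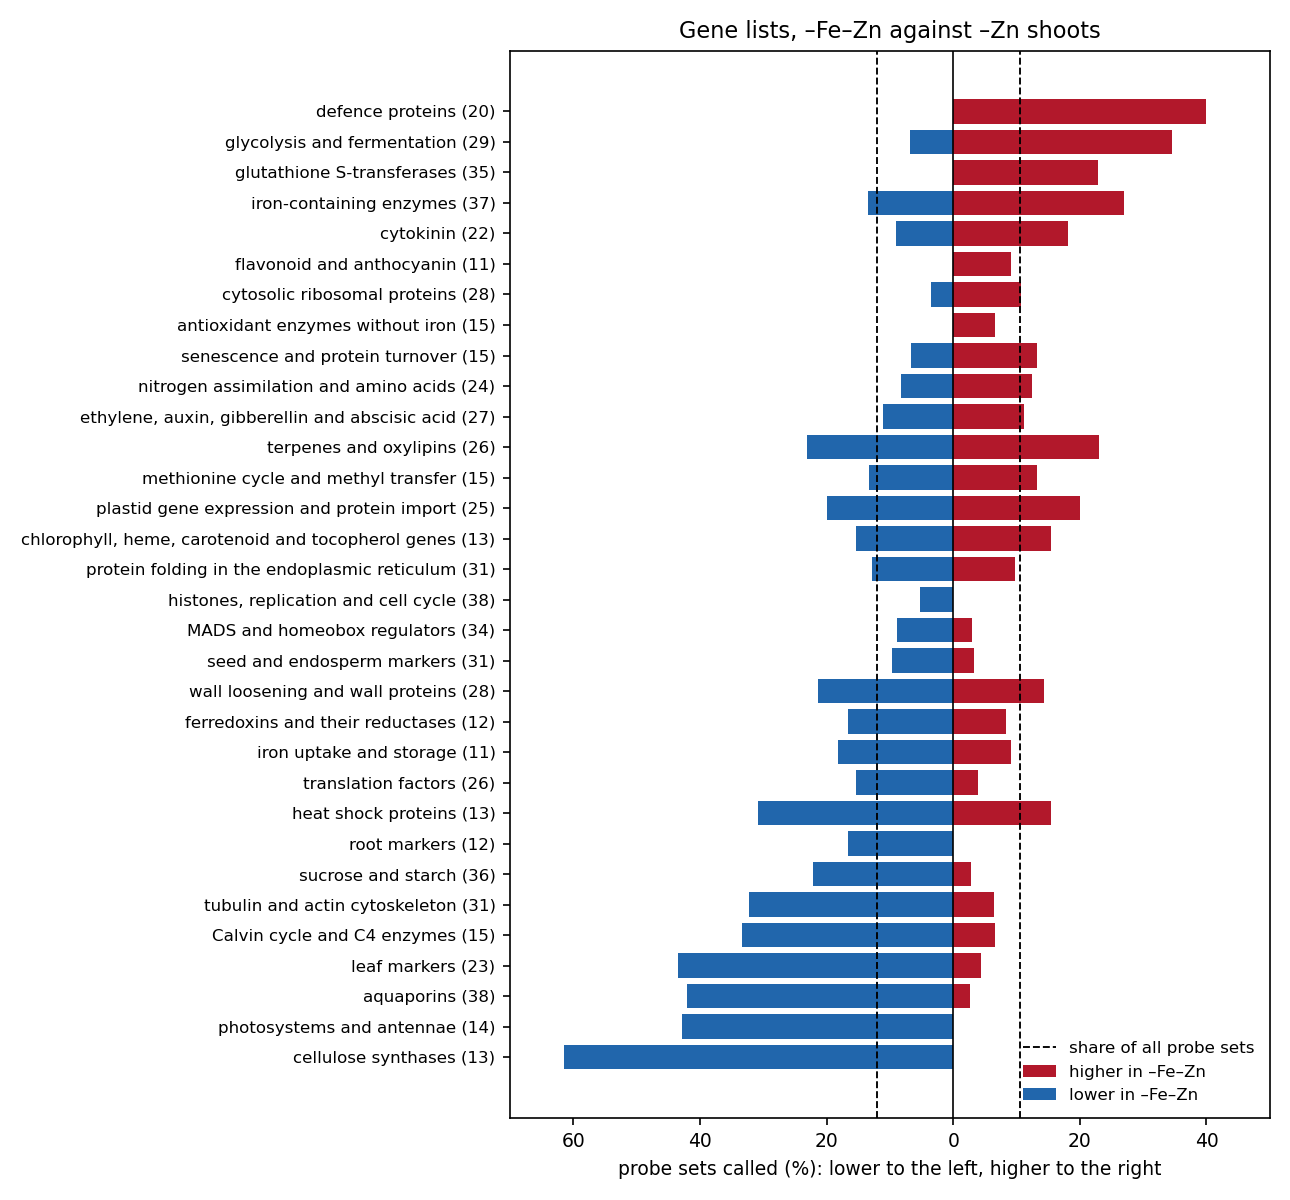
Share of the probe sets of each gene list that rose (right) or fell (left) in –Fe–Zn against –Zn shoots at an adjusted p under 0.05, with the number of probe sets in parentheses and lists ordered by the share higher minus the share lower; lists under 10 probe sets are left out. Dashed lines mark the shares among all probe sets tested, 10.5% higher and 12.1% lower. Cellulose synthases, photosystems, aquaporins and leaf markers reach furthest to the left, and defence proteins and glycolysis furthest to the right.

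Among water channels 16 of 38 probe sets fell. PIP2-5 of the plasma membrane was at 6.08, 6.33 and 6.27 in –Fe–Zn shoots, against 9.13, 9.37 and 9.29 in –Zn shoots, and PIP2-5 fell by 3.04 (standard error 0.18, adjusted p = 1.1e-09). The level of NIP2-1, whose rice counterpart is a silicon channel, was 7.92, 8.17 and 7.98 in –Fe–Zn shoots and 10.83, 11.23 and 11.12 in –Zn shoots. In both genes the groups lay far apart, NIP2-1 fell by 3.04 and another of its probe sets fell by 3.08, while one more lay at -0.02. The tonoplast channel TIP2-1 fell by 1.96 (adjusted p = 2.89e-10) and PIP1-1, one of the most abundant, fell by 0.92 (adjusted p = 2.31e-06). The 16 that fell are 42.1% of the aquaporin probe sets, 1 rose, 21 did not pass the test, and the median was -0.46. After quantile normalization 11 fell, 11 fell when the fit used shoot arrays only, and 8 fell when it used only the 6 arrays.

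Most cellulose synthase probe sets fell. The levels of CesA-7, a catalytic subunit of cellulose synthase, were 7.45, 7.50 and 7.71 in –Fe–Zn shoots, against 9.61, 9.79 and 10.15 in –Zn shoots. No array of 1 group came near the other group, and CesA-7 fell by 2.30 (standard error 0.15, adjusted p = 3.76e-09). CesA-4, CesA-2 and CesA-1 fell too (-1.92, -1.28 and -1.17). Of 13 cellulose synthase probe sets none rose and 8 fell (61.5%), with a median of -1.04, and the count stayed at 8 or 9 without any single array. The COBRA-like Bk2L3, of a family needed for cellulose order, fell by 1.62, while its relative Bk2L6 rose by 2.14. Of 28 probe sets of wall loosening and wall proteins 4 rose (14.3%) and 6 fell (21.4%), with a median of 0. In the lignin list of 7, CAD2, cinnamyl alcohol dehydrogenase, fell by 1.01 and CCR1, cinnamoyl-CoA reductase, fell by 0.85 (adjusted p = 0.0116), and none rose.

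Some tubulins, which guide cellulose deposition as microtubules, fell as well. The beta-tubulin tub3 was at 8.32, 8.34 and 8.52 in –Fe–Zn shoots and at 9.88, 10.10 and 10.31 in –Zn shoots, and tub3 fell by 1.70 (adjusted p = 5.63e-07). Also lower were tub7, which fell by 1.09, and tua4, which fell by 0.90. Of 31 tubulin and actin probe sets 2 rose and 10 fell (32.3%). Histone, replication and cell cycle genes had 2 of 38 lower (5.26%), among them cycD2, a D-type cyclin, and none higher.

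Terpene and hormone genes held both extremes. The gene tps1, by its synonyms an ent-kaurene synthase type of terpene synthase, was at 5.52, 5.32 and 5.34 in –Fe–Zn shoots, against 9.80, 10.04 and 9.94 in –Zn shoots. It fell by 4.53 (standard error 0.32, adjusted p = 1.3e-08), or 23.1-fold, the largest fall among annotated genes. The enzyme before it in gibberellin synthesis, the ent-copalyl diphosphate synthase an1, fell by 2.04 (adjusted p = 6.38e-10) to 2.81, 2.75 and 2.49 in –Fe–Zn shoots, against 4.61, 4.80 and 4.75 in –Zn shoots. Another terpene synthase, tps6, was at 6.85, 6.16 and 6.65 in –Fe–Zn shoots but near background at 2.88, 2.88 and 2.80 in –Zn shoots. That rise of 3.70 (adjusted p = 9.27e-12) had no counterpart with zinc supplied, where tps6 was at 0.04 (adjusted p = 1), and its interaction was 3.65 (adjusted p = 8.42e-10).

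In the oxylipin branch, the oxophytodienoate reductase family split. Its member opr1 rose by 2.21 (adjusted p = 5e-07), with 8.18, 7.91 and 7.76 in –Fe–Zn shoots and 5.74, 5.79 and 5.69 in –Zn shoots, whereas opr5, opr8 and opr7 fell (-1.30, -1.0 and -0.90), with a dimmer probe set of opr8 at 0.63 (adjusted p = 0.145). Of 26 terpene and oxylipin probe sets 6 rose (23.1%) and 6 fell (23.1%). Cytokinin oxidase cko3, which degrades cytokinin, rose by 1.53 (adjusted p = 1.75e-09) and by 1.65 at the other probe set. The cytokinin response regulator RR4 rose by 1.31 at its brighter probe set. The histidine phosphotransfer genes hp2 and HP3, which relay the cytokinin signal, fell (-0.93 and -0.77). Of 22 cytokinin probe sets 4 rose (18.2%) and 2 fell (9.09%), and on the spike scale none rose. In the phytohormone list chosen by the study on these samples, 4 of 18 rose (22.2%) and 5 fell (27.8%).

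Methyl group metabolism held another of the large falls. PEAMT, the methyltransferase of choline synthesis, was at 7.38, 7.42 and 7.39 in –Fe–Zn shoots, against 10.47, 10.86 and 10.77 in –Zn shoots. PEAMT fell by 3.30 (standard error 0.43, adjusted p = 1.74e-05). S-adenosylmethionine synthetase sam2, which makes the methyl donor and the precursor of nicotianamine, rose by 1.69 (adjusted p = 0.00204), with 11.49, 10.37 and 10.83 in –Fe–Zn and 9.81, 8.90 and 8.91 in –Zn shoots. Of 15 probe sets of the methionine cycle and methyl transfer 2 rose (13.3%) and 2 fell (13.3%), near the shares over all probe sets.

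Some of the widest differences belong to transcripts with no role named here. By the brightest probe set of each gene, LOC541918 rose most among annotated genes, to 13.69, 13.72 and 13.71 in –Fe–Zn shoots, against 8.03, 7.61 and 7.42 in –Zn shoots. Its difference of 6.02 (standard error 0.24, adjusted p = 9.27e-12) is 65.1-fold, and both of its probe sets gave 6.02. MGL3 rose by 3.99, and LOC541692, MZm3-3 and LOC542505 fell (-3.28, -2.90 and -2.87). Among probe sets without a gene name, the largest difference downwards was -8.05, with levels of 2.47, 3.05 and 3.17 in –Fe–Zn and 10.84, 10.85 and 11.16 in –Zn shoots, and the largest upwards was 5.60.

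The effect of iron withdrawal was then set against that with zinc supplied. In –Fe against +Fe+Zn shoots 2999 probe sets rose (17%) and 2915 fell (16.5%). Of the 1849 that rose without zinc, 758 also rose with zinc, which is 41% of the rises without zinc and 25.3% of the rises with zinc. Of the 2137 that fell without zinc, 997 fell with zinc as well, or 46.7% and 34.2% of the lists. Another 256 that rose without zinc fell with zinc, and 247 did the reverse. Across all probe sets the 2 iron effects correlated at Pearson's r = 0.31, a description in which probe sets are not independent replicates. The difference between the effects, the Fe by Zn interaction, was higher without zinc for 1995 probe sets (11.3%) and lower for 2322 (13.2%). It was called for 1930 of the 3986 probe sets changed without zinc, or 48.4%.

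**Figure D4:**
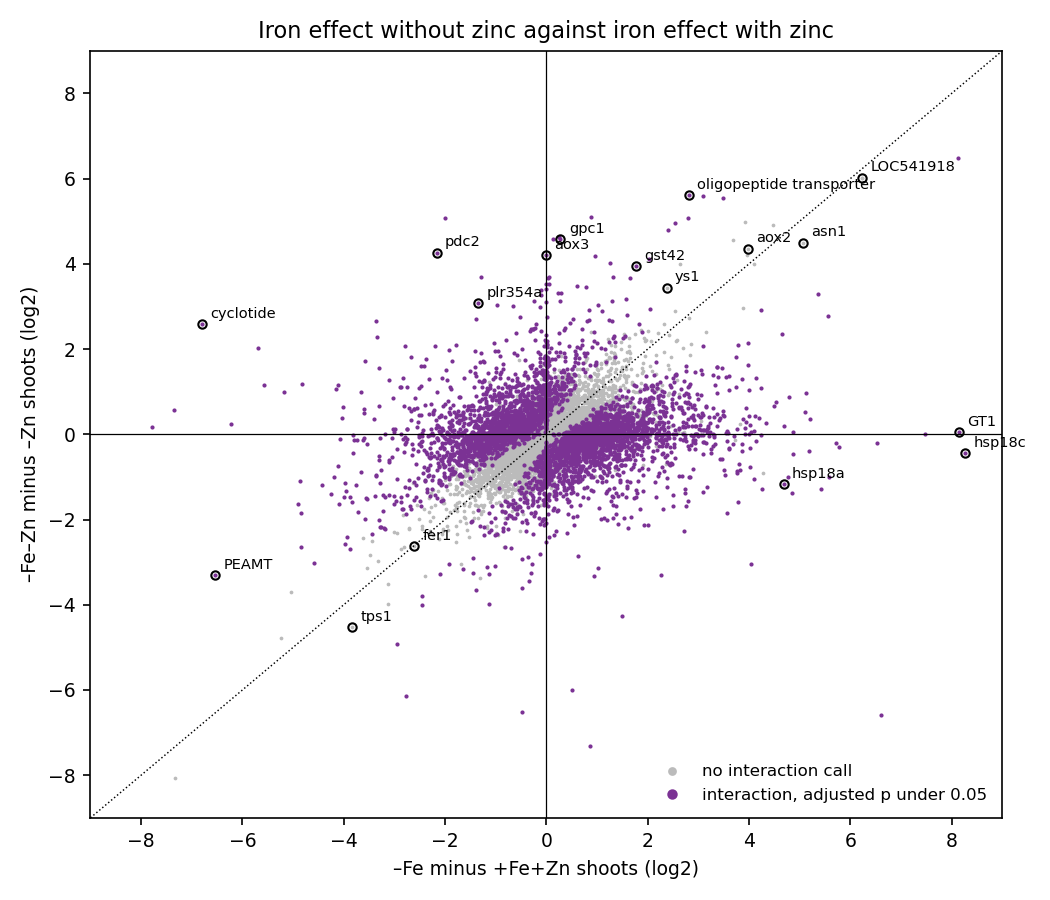
Iron effect without zinc (–Fe–Zn minus –Zn, vertical) against iron effect with zinc (–Fe minus +Fe+Zn, horizontal), log2, for every tested probe set; purple marks an interaction with an adjusted p under 0.05, and the dotted line marks equal effects. Genes such as aox2, fer1 and LOC541918 lie near the line, pdc2 and the cyclotide gene lie to the upper left, and the small heat shock genes lie to the right near 0.

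Small heat shock proteins, chaperones that hold unfolded proteins, responded to iron differently at the 2 zinc levels. The gene hsp18c was at 9.22, 9.71 and 9.60 in –Fe–Zn shoots and at 10.18, 9.93 and 9.71 in –Zn shoots. These groups met at their edges and the difference was -0.43 (adjusted p = 0.238). With zinc supplied hsp18c was at 11.40, 11.33 and 11.42 in –Fe shoots, against 3.14, 3.01 and 3.22 in +Fe+Zn shoots, a rise of 8.26. The gene was thus high in every shoot that lacked 1 or both elements and near background only with both supplied. A second, dim probe set of hsp18c had an interaction of 0.67 (adjusted p = 0.239). Of 13 heat shock probe sets, 2 rose (15.4%) and 4 fell (30.8%) without zinc (median -0.24). With zinc 11 rose and none fell (median 2.5), where 17% of all probe sets rose and 16.5% fell. The interaction was negative for 11 and positive for none, against 13.2% and 11.3% of all probe sets. Those that rose without zinc were the chaperonin genes CPN60II, by 1.40, and HSP60-1, by 0.74 (HSP60-1 was named after its value was seen). The Clp chaperone hsp101 fell by 1.43, whereas with zinc it rose by 2.50.

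Cytosolic ribosomal proteins also rose more often with zinc than without. Without zinc 3 of 28 probe sets rose (10.7%, near the 10.5% of all probe sets) and 1 fell (3.57%), with a median of 0.05. With zinc 18 rose and 1 fell (median 0.65), where 17% of all probe sets rose and 16.5% fell. The interaction was negative for 12 of the 28 and positive for none, against 13.2% and 11.3% of all probe sets. The 3 that rose without zinc were RPL10 by 0.64, rps6-2 by 0.57 and rpl39 by 0.45, and each turned negative on the spike scale.

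The pyruvate decarboxylase pdc2 and a defence gene had interactions of the opposite sign. In –Fe shoots pdc2 was at the lowest value, 2.24, on all 3 arrays, against 4.43, 4.26 and 4.51 in +Fe+Zn shoots, so its interaction was 6.42 (adjusted p = 1.52e-10), and that of its next probe set was 1.61 (adjusted p = 0.000428). For gpc1 the –Fe shoots were at 11.05, 10.93 and 11.33 and the +Fe+Zn shoots at 10.72, 10.72 and 11.04, so at this probe set only the –Zn shoots were low. The other probe set of gpc1 went against it, with means of 4.35 in –Fe–Zn and 4.33 in –Zn shoots, against 11.36 in –Fe and 7.81 in +Fe+Zn shoots, and its interaction was -3.53 (adjusted p = 1.94e-05). The cyclotide gene was at 5.46, 6.13 and 5.69 in –Fe–Zn shoots and 3.38, 3.05 and 3.08 in –Zn shoots, but at 2.24, 2.24 and 2.26 in –Fe shoots, against 9.11, 8.98 and 9.06 in +Fe+Zn shoots. It was thus highest with both elements supplied, and its interaction of 9.40 (adjusted p = 1.22e-11) was the largest positive one among annotated genes.

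**Figure D5:**
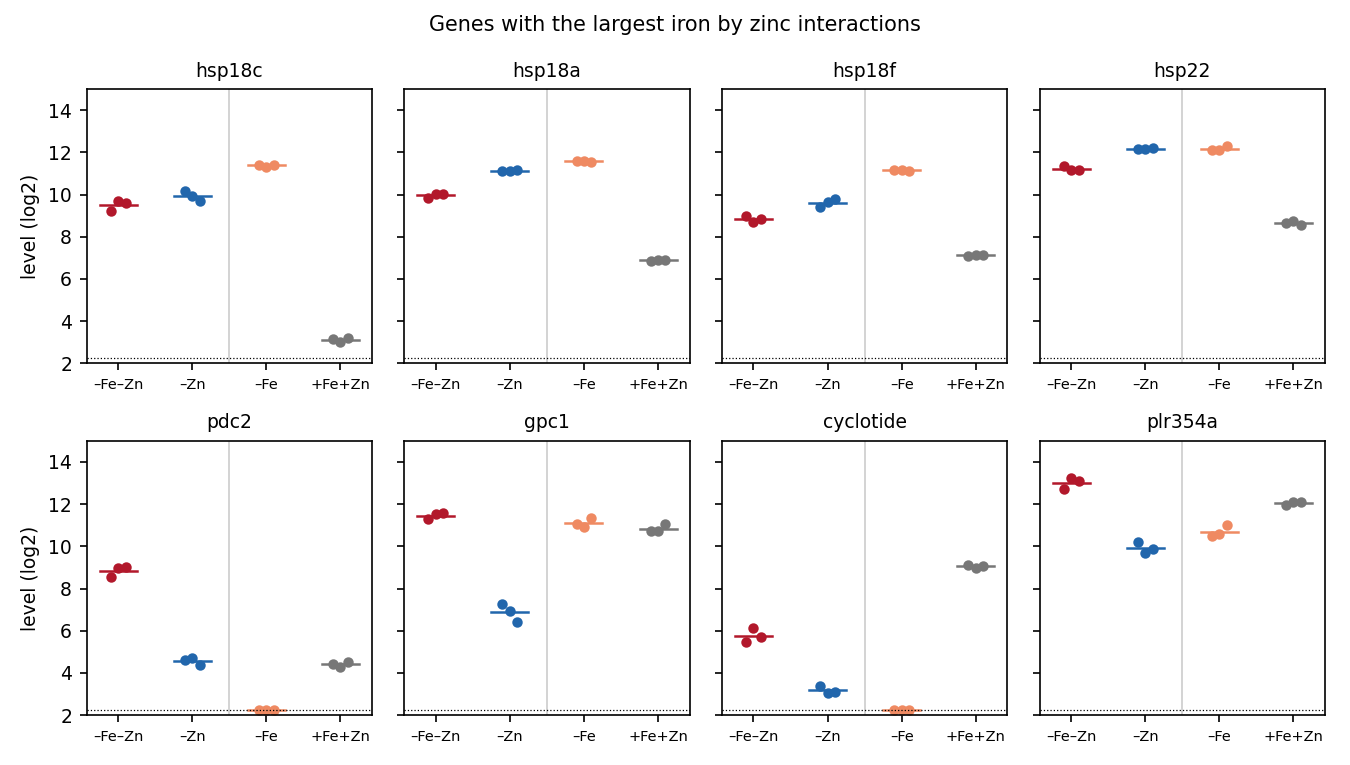
Levels (log2) of 8 genes with large Fe by Zn interactions on each shoot array; points are arrays, bars are means of 3, and the dotted line is the lowest value deposited. The heat shock genes are lowest in +Fe+Zn shoots, though only hsp18c is near background there. The gene pdc2 is highest in –Fe–Zn shoots, gpc1 at the probe set drawn is low only in –Zn shoots, and the cyclotide gene is highest in +Fe+Zn shoots.

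Several control transcripts and spikes differed between the zinc levels, and some mid-transcript ones also between –Fe and +Fe+Zn shoots. A mid-transcript probe set of the control Gapdh had means of 2.48 in –Fe–Zn, 2.52 in –Zn, 5.37 in –Fe and 2.43 in +Fe+Zn shoots. For cyclophilin, a housekeeping control, the probe set at mid-transcript had means of 2.77 in –Fe–Zn and 2.76 in –Zn shoots, against 9.18 in –Fe and 4.84 in +Fe+Zn shoots. Its 3′ probe set was at 13.76 in –Fe–Zn and 13.57 in –Zn shoots. One 3′ probe set of the dap spike read 6.15 ± 0.37 in –Fe–Zn and 6.0 ± 0.68 in –Zn shoots (SD, n = 3), against 10.6 in –Fe and 10.26 in +Fe+Zn shoots. Over its 9 probe sets, dap in –Fe–Zn minus –Zn shoots ranged between -0.99 and 1.39. A 3′ probe set of the thr spike read 5.6 in –Fe–Zn and 5.66 in –Zn shoots, against 8.43 in –Fe and 8.02 in +Fe+Zn shoots. In the same order, a mid-transcript probe set read 3.3, 3.15, 5.37 and 4.85 for lys, and 3.94, 4.42, 7.08 and 5.27 for ubiquitin. Not every control did so, as a 3′ probe set of lys read 7.61, 7.25, 7.48 and 7.38. The arrays behind each interaction, and those behind the iron effect with zinc, thus differed in such controls as well. The part of these controls in the interactions and in the iron effect with zinc was not tested.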

How the data were processed

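RNA from shoots of maize seedlings was hybridised to the GeneChip Maize Genome Array. The authors read the scanner files with affy and deposited log2 values, background-corrected, normalized over all 24 arrays and summarised per probe set, by GCRMA according to the methods, while the processing notes name RMA, so the method is not settled. The values are used as deposited, and for arrays the number of arrays limits the precision.

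Probe sets other than controls (17621) were fitted with limma 3.58.1 in R 4.3.3 as 8 group means over 24 arrays, with contrasts –Fe–Zn minus –Zn, –Fe minus +Fe+Zn and their difference, and p-values were adjusted by Benjamini-Hochberg over all probe sets tested. The fit was tested on simulated data. The members and lists were chosen with earlier results of these data known. Named were, among annotated genes, the 10 that rose most, the 10 that fell most, the 5 largest interactions each way, up to 4 changed members per list and the study's iron and zinc genes. Others are named as seen afterwards (CAT3, HSP60-1, opr5, opr7, opr8 and further probe sets of a gene). The 2 superoxide dismutases were moved out of the iron-containing enzymes after values were seen. Names come from the platform annotation, updated through RefSeq; 1452 probe sets have 1 gene name. Replicate numbers do not pair the arrays (same-numbered deviations correlated at -0.47, -0.17 and -0.1). No promoter or protein sequences were used here.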

Additional observations from a re-analysis of the deposited data

Results flagged for a closer look

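The iron effect without zinc differed from the iron effect with zinc, by limma's interaction term, for the 10 annotated genes with the largest differences each way. Negative terms were -8.69 for hsp18c (adjusted p = 6.87e-12), -8.09 for GT1 (adjusted p = 0.000363), -5.85 for hsp18a, -4.78 for hsp18f and -4.46 for hsp22. GT1 lay at background on the –Fe–Zn and –Zn arrays and was high only in –Fe shoots, at 11.36, 11.21 and 10.87, against 2.62, 3.32 and 3.09 in +Fe+Zn shoots. Without zinc hsp18a fell by 1.16, with 9.84, 10.05 and 10.04 in –Fe–Zn and 11.12, 11.11 and 11.19 in –Zn shoots, while with zinc it stood at 11.60, 11.61 and 11.53 in –Fe shoots, against 6.88, 6.92 and 6.90 in +Fe+Zn shoots.

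Positive terms were 9.40 for the cyclotide gene, 6.42 for pdc2, 4.65 for PRO1, 4.43 for plr354a and 4.30 for gpc1, whose other probe set had a term of the opposite sign, -3.53 (adjusted p = 1.94e-05). The proline-rich protein gene plr354a was at 12.73, 13.22 and 13.10 in –Fe–Zn shoots, against 10.22, 9.70 and 9.89 in –Zn shoots, and at 10.51, 10.58 and 11.01 in –Fe shoots, against 11.94, 12.10 and 12.11 in +Fe+Zn shoots. The profilin gene PRO1 rose by 0.64 without zinc (adjusted p = 0.0179), a call that ended without replicate 2 of –Fe–Zn (PRO1 0.39, adjusted p = 0.105). All 10 interactions kept their direction and call without any single array of the –Fe or +Fe+Zn groups, and the controls named in the report differed between the same groups, with their part not tested.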

How the results depend on the processing

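The 1469 changed probe sets became 3986 by adjusted p without a minimum fold, 150 when only annotated genes with 1 probe set each were tested, and 5564 (177 higher and 5387 lower) when arrays were scaled to the spikes. That scaling, added after seeing the data, also took the iron effect with zinc to 2025 probe sets, against 5914 as deposited. Leaving out 1 array at a time gave 1449 to 1815 changed probe sets, and shoot arrays only gave 1438, the 6 arrays alone 1298, quantile normalization 1640, median centring 1508 and the filter on dim probe sets 1474.

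On the spike scale the differences of the following genes turned negative: fdx3 (-0.60 and -0.54), tif-4A3 (-0.48), ubc7 (-0.46), rpl39 (-0.43), HMT-3 (-0.39), ACO20 (-0.31), rps6-2 (-0.31), CNX (-0.29), abp1 (-0.26), prpo2 (-0.26), PRO1 (-0.24), RPL10 (-0.24), hox1b (-0.09) and gpa1 (-0.04). GT1, at background without zinc (0.05), was at -0.83 on that scale, at -0.01 after quantile normalization, and at -0.03 to 0.12 without 1 array at a time.

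The replicate numbers do not pair the arrays, and a replicate block over 24 arrays gave 1467 changed probe sets and ended 3 calls of named genes (eif3, Nicotianamine synthase 3 and prpo2). A replicate block over the 6 arrays gave 1119 changed probe sets and ended the calls of 93 named genes, with few residual degrees of freedom. Fitting only the 6 arrays without a block ended 41. A second probe set of a named gene was called alike in 19 cases, 1 of the pair was called in 36, and ubc7 was called in opposite directions by its probe sets. Probe sets at the lowest value on both sides (1855 on all 6 arrays) can show no difference.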
